A study of Caenorhabditis elegans with 4 samples.

Results

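The genes lys-1 to lys-10 encode the family of C. elegans lysozymes that resemble those of amoebae. They were taken from the count tables by gene name, and all 10 were found among the 46904 genes listed. Lysozymes cut the peptidoglycan of bacterial cell walls. In a worm that lives on bacteria they are known both as digestive enzymes of the gut and as effectors of defence, and several are controlled by the insulin, p38 and BMP-like signalling pathways. A second, unrelated family of invertebrate-type lysozymes is encoded by the ilys genes.

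RNA came from whole wild-type hermaphrodites of the Bristol N2 strain, with about 200 worms collected per group. One food contained Lactiplantibacillus sp. MH-1, a lactic acid bacterium, which the sample labels name together with OP50 (feeding OP50 +MH-1). The control food was Escherichia coli OP50, the usual laboratory diet. Each food had 2 libraries, and the study asks which genes differ with the food. The labels give the worms as 4 days old and fed for 1 day in one place, and as 1 day old and cultured for 2 days in another. Whether replicates were separate cultures is not stated, so the p-values reflect the spread among these 4 libraries, which could be technical.

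The labels also conflict on the groups. Every count column (4 tables) carries a header that names the other food than the title of its sample. Libraries are grouped here by title and called "titled OP50 + MH-1" or "titled OP50". Were the headers right, every direction below would turn round with its size and p-value kept.

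The libraries titled OP50 + MH-1 held 15771890 and 21572225 counts, and those titled OP50 held 18485858 and 17593775. At that depth 3 counts correspond to between 0.138 and 0.186 CPM (counts scaled to a common library size, using TMM-adjusted totals). This floor is given for orientation and covers counting error only. Counts of 0 entered the means as 0. Of 12640 genes tested, 42 were called lower (0.332%) and 230 higher (1.82%) with the MH-1 title, at an adjusted p under 0.05 (edgeR quasi-likelihood test with Benjamini-Hochberg adjustment). Both libraries of one food lay apart from both of the other in 46.0% of tested genes. The labelled tissue is the whole worm, and all listed markers of intestine, body wall muscle, neurons and germline had reads in every library. In the lists of pharynx, epidermis and molting, and embryo markers, 2, 2 and 1 genes lacked reads in at least 1 library.

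The lysozyme reads came almost wholly from a few genes, of which 1, lys-4, differed between the foods beyond the threshold. lys-8, lys-7, lys-4, lys-1 and lys-2 carried nearly all of the family's reads, together at least 99.1% in every library. Per kilobase of exon, in the libraries titled OP50 + MH-1, lys-8 stood at 217 ± 5.31 CPM per kb, lys-7 at 196 ± 4.60, lys-1 at 141 ± 16.4, lys-4 at 132 ± 6.33 and lys-2 at 70.1 ± 4.33 (SD, n = 2). In the libraries titled OP50 the order on the same scale began with lys-4 at 325 ± 66.3, followed by lys-8 at 248 ± 9.96, lys-7 at 209 ± 19.1, lys-1 at 122 ± 9.52 and lys-2 at 53.5 ± 8.98 CPM per kb (SD, n = 2). lys-4 was thus the highest lysozyme with the control label and the fourth with the MH-1 label. There its range overlapped that of lys-1. All other neighbours among these 5 genes were apart within each food.

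**Figure D1:**
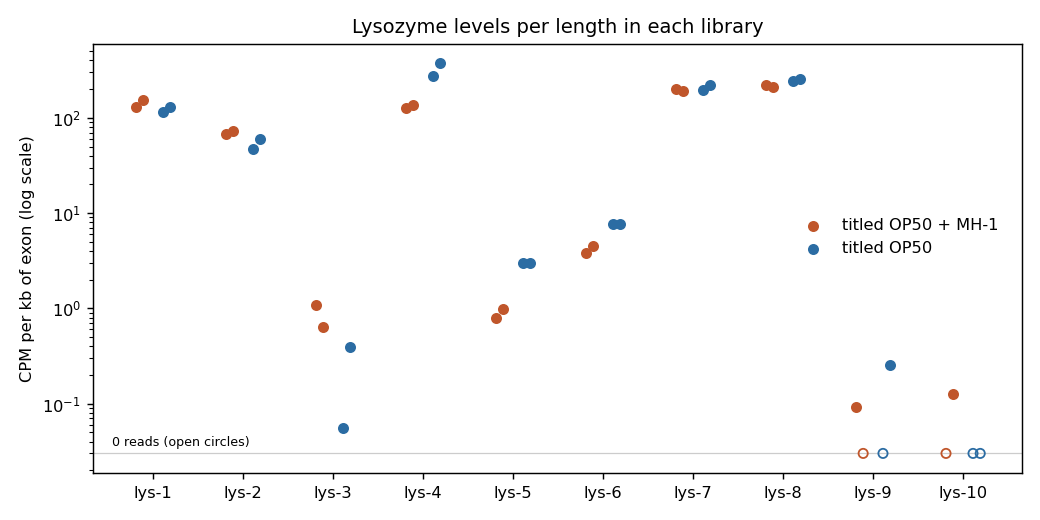
Level of each lysozyme per length, in CPM per kb of exon on a log scale, with 1 point per library (left of each pair, titled OP50 + MH-1; right, titled OP50) and open circles for 0 reads. lys-8, lys-7, lys-4, lys-1 and lys-2 lie above 40 CPM per kb in all libraries, lys-4 to lys-6 are lower with the MH-1 label, and lys-9 and lys-10 are near or at 0.

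The remaining members were low. Per length, lys-6 averaged 4.2 ± 0.503 CPM per kb in the libraries titled OP50 + MH-1 and 7.71 ± 0.0611 in those titled OP50 (SD, n = 2). lys-5 averaged 0.896 ± 0.137 CPM per kb in the libraries titled OP50 + MH-1 and 2.99 ± 0.0199 in those titled OP50. lys-3 averaged 0.866 ± 0.326 CPM per kb in the libraries titled OP50 + MH-1, where it overlapped lys-5, and 0.222 ± 0.237 in those titled OP50. lys-9 had 1 and 0 counts with the MH-1 label and 0 and 3 with the OP50 label. lys-10 had 0 and 2 counts with the MH-1 label and 0 and 0 with the OP50 label. Neither was tested, and at this depth a difference in them was not detectable. Set among all tested genes by mean level per length, lys-8 exceeded 96.5% of them, lys-4 96.4%, lys-2 81.5%, lys-6 39.0% and lys-3 5.13%.

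lys-4 was the 1 lysozyme that passed the test, with lower values under the MH-1 label. The tables annotate it with lysozyme activity, peptidoglycan breakdown and defence against Gram-positive bacteria. The last term is also given to lys-1, lys-2, lys-5 and lys-7. It stood at 98.5 and 105 CPM in the libraries titled OP50 + MH-1, against 215 and 288 CPM in those titled OP50. The groups did not overlap, and the libraries titled OP50 differed more from each other than those titled OP50 + MH-1. The log2 fold change was -1.30 ± 0.14 (SE), with a 95% interval of -1.62 to -0.98 and an adjusted p of 0.0104 (edgeR). It was 2.47-fold lower, with bounds of 1.97-fold and 3.08-fold. It was the 1 called among the 8 tested lysozymes, and the call held in all 12 alternative fits (log2 fold change -1.5 to -1.08, adjusted p at most 0.0293). No lysozyme was called higher by edgeR, DESeq2 or limma-voom. At an unadjusted p under 0.05 there were 4 lower (4.61% of all tested genes) and 1 higher (9.46%). RNA was taken from whole animals, so fewer cells of a type and less RNA per cell cannot be told apart.

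Within the family, the share of lys-4 in lysozyme reads was 13.9% and 14.4% in the libraries titled OP50 + MH-1 and 26.6% and 30.4% in those titled OP50. lys-1 moved the other way, at 20.3% and 23.1% with the MH-1 label and 15.76% and 15.03% with the OP50 label. lys-8 and lys-7 kept shares between 21.4% and 30.6% in all 4 libraries. These shares need no scaling between libraries, but a fall in one gene raises the share of the rest.

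**Figure D2:**
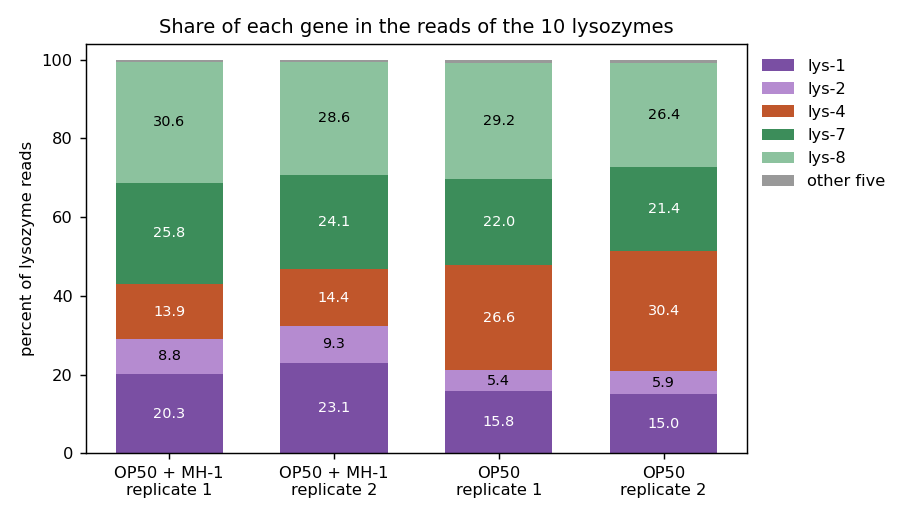
Percent of the reads of the 10 lysozymes taken by each gene in each library, with the 5 low members summed. The lys-4 part is 13.9% and 14.4% in the libraries titled OP50 + MH-1 and 26.6% and 30.4% in those titled OP50.

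The ratio of lys-4 to each other abundant lysozyme was apart between the foods. lys-4 reads were 0.688 and 0.624 times those of lys-1 in the libraries titled OP50 + MH-1, against 1.69 and 2.02 times in those titled OP50. Relative to lys-7 the ratio was 0.541 and 0.598 with the MH-1 label, against 1.21 and 1.42 with the OP50 label. Relative to lys-2 it was 1.58 and 1.55 with the MH-1 label, against 4.92 and 5.18 with the OP50 label. The same ratio to lys-8 was 0.455 and 0.504 with the MH-1 label, against 0.910 and 1.15 with the OP50 label. Being apart was not particular to lys-4. The ratios of lys-2 to lys-1 and of lys-8 to lys-7 were apart as well, but differed by only 1.14-fold and 1.08-fold between the foods. The 4 lys-4 ratios differed by 2.14-fold (to lys-8) to 3.22-fold (to lys-2). With 2 libraries against 2, an exact two-sided permutation test of such a ratio cannot go below p = 0.333.

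lys-5 and lys-6, which the tables also annotate with lysozyme activity, had lower values with the MH-1 label but did not pass the test. lys-5 had 9 and 15 counts in the libraries titled OP50 + MH-1 and 37 and 37 in those titled OP50, or 0.557 and 0.692 CPM against 2.07 and 2.09 CPM. Its log2 fold change was -1.72 ± 0.43 (SE, adjusted p = 0.124, edgeR), with a 95% interval of -2.73 to -0.70. Without the filter on low counts its adjusted p was 0.0204 (edgeR), although its SE was larger, at 0.517. That fit called 297 genes lower and 815 higher, against 42 and 230 in the main fit. Passes without the filter, here and below, therefore carry less weight. lys-6 had 44 and 70 counts in the libraries titled OP50 + MH-1 and 98 and 96 in those titled OP50, or 2.73 and 3.23 CPM against 5.50 and 5.43 CPM. Its log2 fold change was -0.87 ± 0.26 (SE, adjusted p = 0.187, edgeR), with a 95% interval of -1.48 to -0.26. For both genes the foods did not overlap, and their intervals include the value of lys-4.

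These 3 genes are neighbours. In ce11 (WBcel235) coordinates of the deposited tables, lys-4 lies on the minus strand of chromosome IV from 11621443 to 11623174, lys-5 from 11624255 to 11625582 and lys-6 from 11626910 to 11627947, each with 2 exons. The gaps between them are 1080 and 1327 bases. The next protein-coding gene beyond lys-6, F58B3.4, starts 809 bases further and stood at 192 and 195 CPM in the libraries titled OP50 + MH-1 and 187 and 180 CPM in those titled OP50. Its log2 fold change was 0.07 ± 0.07 (SE), and that of the gene after it, mars-1, a methionyl-tRNA synthetase, was -0.02 ± 0.08. On the other side dsl-5 had at most 3 counts in a library and was not tested, and Y24F12A.1 beyond it stood at -0.06 ± 0.08. The only gene listed as overlapping lys-4 is a 21-base piRNA locus with 0 counts in all libraries.

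lys-1, lys-2 and lys-3 form a second cluster and had higher values with the MH-1 label, but none passed. lys-1, annotated in the tables to cytoplasmic vesicles and to defence against Gram-negative and Gram-positive bacteria, stood at 143 and 169 CPM in the libraries titled OP50 + MH-1 and 128 and 142 CPM in those titled OP50. The foods were apart only narrowly. Its log2 fold change was 0.21 ± 0.10 (SE, adjusted p = 0.420, edgeR), with a 95% interval of -0.03 to 0.45.

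lys-2, also annotated with lysozyme activity, stood at 62.2 and 67.9 CPM in the libraries titled OP50 + MH-1 and 43.8 and 55.6 CPM in those titled OP50. Its log2 fold change was 0.39 ± 0.13 (SE, adjusted p = 0.227, edgeR), with a 95% interval of 0.09 to 0.69. It passed without OP50 replicate 2 (adjusted p = 0.0426, edgeR), a fit in which the remaining library titled OP50 shows no spread of its own, and without the filter on low counts (0.00988).

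lys-3, which the tables annotate with innate immunity and the response to copper, had 18 and 14 counts in the libraries titled OP50 + MH-1 and 1 and 7 in those titled OP50. It passed the filter on low counts through the libraries titled OP50 + MH-1 alone (at least 0.554 CPM in 2 libraries), and a gene kept in that way had to be higher there. Its log2 fold change of 1.91 ± 0.84 (SE, adjusted p = 0.371, edgeR) had a 95% interval of -0.07 to 3.89.

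This cluster lies on chromosome V, with lys-1 on the plus strand from 10277827 to 10279127, lys-2 on the minus strand from 10280310 to 10281474 and lys-3 on the minus strand from 10282204 to 10283544. lys-1 and lys-2 have 2 exons each and lys-3 has 3. Gaps of 1182 and 729 bases separate them. Of the protein-coding genes on either side, the neuronal SNAP-25 homologue ric-4 stood at a log2 fold change of 0.30 ± 0.20 (SE) and B0024.3 at 0.69 ± 0.59, and neither passed. Summed, the 3 genes on chromosome IV had 0.493 and 0.461 times the reads of the 3 on chromosome V in the libraries titled OP50 + MH-1, against 1.30 and 1.49 times in those titled OP50. That ratio rests almost wholly on lys-4, lys-1 and lys-2, and it was formed after the values were seen.

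**Figure D3:**
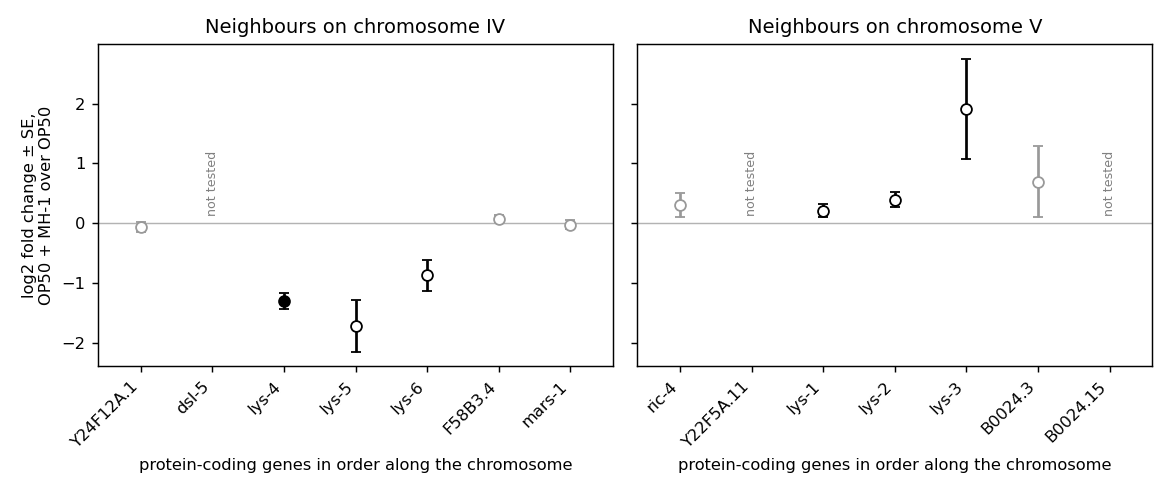
Log2 fold change ± SE of OP50 + MH-1 over OP50 for protein-coding genes in order along chromosomes IV and V, lysozymes in black and flanking genes in grey, filled where the adjusted p is under 0.05. The values of lys-4, lys-5 and lys-6 lie between -1.72 and -0.87 and their tested neighbours between -0.06 and 0.07.

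lys-7 and lys-8, which lie alone and are known as outputs of insulin signalling through the transcription factor DAF-16, differed little between the foods. lys-7 (chromosome V, 3481421 to 3482600, minus strand, 3 exons), annotated with defence against bacteria and fungi, stood at 182 and 176 CPM in the libraries titled OP50 + MH-1 and 178 and 203 CPM in those titled OP50. The foods overlapped. The log2 difference was -0.09 ± 0.08 (SE; edgeR, adjusted p = 0.709), with a 95% interval of -0.29 to 0.11, or from 0.819-fold to 1.08-fold.

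lys-8 (chromosome II, 5586165 to 5587651, plus strand, 3 exons) stood at 217 and 209 CPM in the libraries titled OP50 + MH-1 and 237 and 250.5 CPM in those titled OP50. The foods did not overlap, but the log2 fold change was -0.19 ± 0.07 (SE, adjusted p = 0.305, edgeR), with an interval of -0.37 to -0.02. Its last 38 bases overlap C17G10.13 on the opposite strand, and whether the counting used strand is not stated. The intervals of lys-7 and lys-8 do not reach the value of lys-4.

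**Figure D4:**
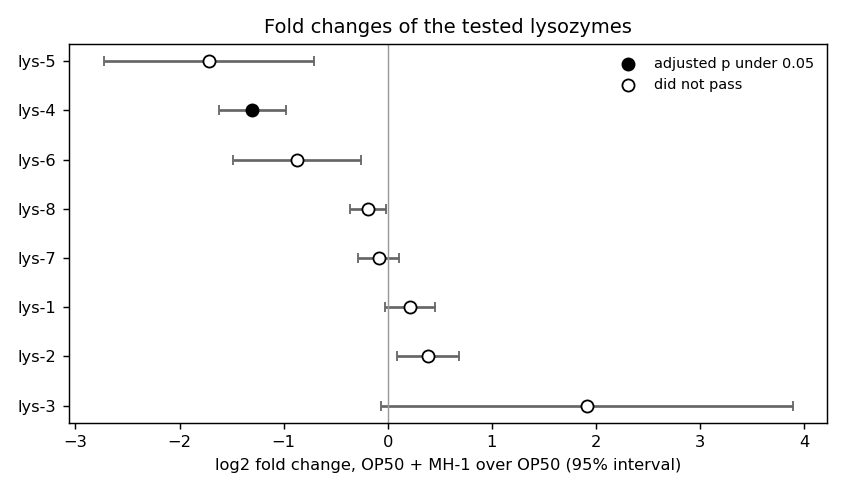
Log2 fold change of OP50 + MH-1 over OP50 with its 95% interval for the 8 tested lysozymes, filled where the adjusted p is under 0.05. lys-4 at -1.30 is the filled point; the intervals of lys-7, lys-1 and lys-3 include 0.

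With lys-3 set aside, since the filter kept it through one food alone, log2 fold changes were negative for 5 and positive for 2 of the other 7 tested lysozymes. Their median was -0.19, beside 0.0027 over all tested genes. Both libraries titled OP50 + MH-1 lay below both titled OP50 in 4 of these 7 (lys-4, lys-5, lys-6 and lys-8), an arrangement seen in 21.6% of all tested genes, and above them in 2 (lys-1 and lys-2), seen in 24.4%. The summed level of all 10 genes was 707.4 and 732.6 CPM in the libraries titled OP50 + MH-1, against 809.1 and 947.5 CPM in those titled OP50. The difference of means was -158 CPM (exact two-sided permutation test, p = 0.333, the smallest that this design can give). Most of that difference was lys-4, which averaged 102 ± 4.90 CPM with the MH-1 label and 252 ± 51.4 CPM with the OP50 label (SD, n = 2). Among the other abundant members, lys-8 and lys-7 were lower by less, and lys-1 and lys-2 were higher.

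None of 12 intestine markers passed (edgeR and limma-voom; 1 lower with DESeq2). Values were negative for 7 and positive for 5. At an unadjusted p under 0.05, 4 were lower and 0 higher, beside 4.61% and 9.46% of all tested genes, the median log2 fold change was -0.11, and no marker was at 0 in any library. Their summed level was 1477 and 1866 CPM in the libraries titled OP50 + MH-1, against 2269 and 2552 CPM in those titled OP50. Most of it was the aspartyl protease asp-1, and without it the sum was 375.8 and 439.4 CPM with the MH-1 label, against 437.1 and 456.1 CPM with the OP50 label. lys-4 had 0.0667 and 0.0565 times the reads of all 12 markers in the libraries titled OP50 + MH-1, against 0.0949 and 0.113 times in those titled OP50, a difference of 1.69-fold. Relative to the 11 markers without asp-1, a set formed after the values were seen, lys-4 had 0.262 and 0.240 times the reads with the MH-1 label, against 0.493 and 0.632 times with the OP50 label, a difference of 2.22-fold. lys-7 relative to all 12 markers was higher with the MH-1 label, at 0.123 and 0.0945, against 0.0785 and 0.0795 with the OP50 label. Without asp-1 the lys-7 ratio overlapped between the foods, at 0.485 and 0.401 with the MH-1 label and 0.408 and 0.445 with the OP50 label.

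Of the other marker lists, 4 of 11 tested embryo markers were called higher, beside 1.82% of all tested genes, with sums of 525.6 and 505.5 CPM in the libraries titled OP50 + MH-1 and 383.1 and 365.9 CPM in those titled OP50. Epidermis and molting markers were called higher in 5 of 9 (3 with limma-voom), with sums of 637.6 and 554.2 CPM with the MH-1 label and 396.0 and 335.0 CPM with the OP50 label. No oocyte or germline marker passed in edgeR or limma-voom (1 lower with DESeq2), but all 12 had negative values. Of them 4 were at an unadjusted p under 0.05, beside 4.61% lower among all tested genes. Their sums were 8298 and 8439 CPM in the libraries titled OP50 + MH-1 and 9816 and 9343 CPM in those titled OP50. Among 8 body wall muscle markers 1 was called higher (0 with limma-voom), beside 1.82% of all tested genes. At an unadjusted p under 0.05, 4 were higher, beside 9.46% of all tested genes. The sums of the 8 were 2110 and 2294 CPM with the MH-1 label and 2065 and 1929 CPM with the OP50 label. Of 9 tested pharynx markers 1 was called higher (pha-4, which is also in the embryo list), and of 8 neuron markers 0 were called. The part of these markers in the lysozyme values was not tested.

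The invertebrate-type lysozymes gave no call in edgeR or limma-voom, and 1 lower in DESeq2. Of 6 ilys genes 4 were tested. One of them, ilys-3, passed the filter on low counts through the libraries titled OP50 alone, so it had to be lower with the MH-1 label. Of the other 3, ilys-5 and ilys-2 had negative values and ilys-4 a positive one. ilys-2 lay near the filter as well, with 13 and 12 counts in the libraries titled OP50 + MH-1 and 30 and 46 in those titled OP50. ilys-5 averaged 1049 ± 172 CPM in the libraries titled OP50 + MH-1 and 1588 ± 16.4 CPM in those titled OP50 (SD, n = 2). Its log2 difference was -0.60 ± 0.13 (SE; edgeR, adjusted p = 0.0869). It passed without OP50 + MH-1 replicate 2 (adjusted p = 0.0379, edgeR), without the filter on low counts (4.83e-07) and with DESeq2 (5.38e-05). ilys-2 averaged 0.679 ± 0.178 CPM in the libraries titled OP50 + MH-1 and 2.14 ± 0.652 CPM in those titled OP50 (SD, n = 2), at -1.67 ± 0.47 (log2 ± SE, adjusted p = 0.166, edgeR; 0.0234 without the filter).

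The caenopores, small proteins that open pores in bacterial membranes, gave no call in edgeR or limma-voom, and 2 lower in DESeq2. Those 2 were spp-8 and spp-2 (adjusted p = 0.0128 for spp-2, DESeq2). Of 23 genes 14 were tested, 10 with negative values and a median of -0.11, and at an unadjusted p under 0.05 there were 4 lower and 1 higher, beside 4.61% and 9.46% of all tested genes. The smallest p-values belonged to spp-8, with 38.5 ± 2.54 CPM in the libraries titled OP50 + MH-1 and 67.8 ± 15.1 CPM in those titled OP50 (adjusted p = 0.0506, edgeR), and to spp-4, with 13.2 ± 0.373 CPM in the libraries titled OP50 + MH-1 and 20.8 ± 1.77 CPM in those titled OP50 (SD, n = 2; adjusted p = 0.0786, edgeR). spp-8 passed with DESeq2 (adjusted p = 0.000242), with total counts as the scaling (0.0447), without the filter on low counts (1.43e-10) and without OP50 replicate 1 (0.000304) or 2 (0.0437). spp-4 passed without the filter (0.00538).

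Of 22 regulators of lysozyme or gut defence genes, edgeR called 2 higher and 0 lower, beside 1.82% and 0.332% of all tested genes. Their median log2 fold change was 0.01. At an unadjusted p under 0.05 there were 3 higher and 3 lower, beside 9.46% and 4.61% of all tested genes. DESeq2 called 2 higher and 1 lower (daf-2), and limma-voom 1 higher. tir-1, the adaptor at the head of the p38 cascade, averaged 33.2 ± 2.49 CPM in the libraries titled OP50 + MH-1 and 20.4 ± 0.661 CPM in those titled OP50 (SD, n = 2). Its log2 difference was 0.70 ± 0.11 (SE, adjusted p = 0.0325, edgeR). zip-2, a bZIP transcription factor of the response to Pseudomonas infection, averaged 93.2 ± 4.17 CPM in the libraries titled OP50 + MH-1 and 68.4 ± 0.342 CPM in those titled OP50 (SD, n = 2), at 0.45 ± 0.08 (log2 ± SE, adjusted p = 0.0398, edgeR). Leaving out single libraries ended both calls. The adjusted p of tir-1 was 0.0597 and 0.0770 without OP50 + MH-1 replicate 1 and 2 (edgeR). For zip-2 it reached 0.0577 with limma-voom. With 1 library omitted in edgeR, the adjusted p of zip-2 was 0.102 (OP50 + MH-1 replicate 1 omitted), 0.0699 (OP50 replicate 1 omitted) and 0.102 (OP50 replicate 2 omitted).

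The kinases downstream of tir-1 did not pass. nsy-1 stood at -0.12 ± 0.18, sek-1 at 0.31 ± 0.09 and the p38 kinase pmk-1 at 0.17 ± 0.12 (log2 ± SE). The insulin receptor daf-2 stood at -0.47 ± 0.13 (adjusted p = 0.141 with edgeR and 0.0356 with DESeq2). daf-16, the transcription factor under its control, averaged 57.3 ± 3.90 CPM in the libraries titled OP50 + MH-1 and 69.0 ± 0.220 CPM in those titled OP50 (SD, n = 2). The foods did not overlap, as in 46.0% of all tested genes, and daf-16 did not pass, at -0.27 ± 0.09 (log2 ± SE, adjusted p = 0.228, edgeR). The transcription factor pqm-1, which also acts downstream of daf-2, stood at -0.02 ± 0.17 and the gut GATA factor elt-2 at 0.39 ± 0.23 (log2 ± SE). In the BMP-like pathway the ligand dbl-1 stood at -0.17 ± 0.22, the receptor genes sma-6 and daf-4 at 0.18 ± 0.20 and 0.01 ± 0.08, and the Smad genes sma-2, sma-3 and sma-4 at 0.10 ± 0.37, 0.18 ± 0.32 and -0.33 ± 0.27 (log2 ± SE).

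The genes most like lys-4 across the 4 libraries were bcmo-2, sodh-1, tre-5, ctsa-1 and acox-1.5. Likeness is the Euclidean distance between log2 CPM values centred on each gene's mean. It was taken among 5056 tested genes with a class symbol and a mean of at least 5 CPM, and 4 libraries make it a description only. These 5 genes were chosen by that profile. Their lower values with the MH-1 label, and any calls on them, are therefore not a separate result. bcmo-2, annotated as a carotenoid monooxygenase, was nearest at a distance of 0.154. It stood at 10.3 and 12.3 CPM in the libraries titled OP50 + MH-1, against 22.5 and 29.2 CPM in those titled OP50. The distances of the alcohol dehydrogenase sodh-1, the trehalase tre-5, the serine carboxypeptidase ctsa-1 and the acyl-CoA oxidase acox-1.5 were 0.246, 0.251, 0.259 and 0.311. None of the 5 lies on chromosome IV with lys-4.

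The annotation of the tables splits the members. The term for lysozyme activity is given to 4 of 10 (lys-2, lys-4, lys-5 and lys-6), that for innate immune response to 7, and that for defence against Gram-positive bacteria to 5. Of the genes with the activity term, lys-4, lys-5 and lys-6 had negative and lys-2 positive values.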

How the data were processed

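Deposited values are whole-number read counts per gene in 4 tables of 1 library each, not normalized, per the file headers. RNA was poly(A)-selected and the kit keeps strand, per the labels. The submitters' processing notes name STAR 2.7.10a and featureCounts 2.0.1 among the tools, Trim Galore 0.6.7, cutadapt 3.7 and Trimmomatic 0.39 for trimming, and build ce11 (WBcel235). The strand setting and the treatment of reads matching several genes were not given in the sources used here; reads shared between lysozyme paralogs may therefore be split unevenly. Coordinates are those of the tables; 2 of the 10 lysozymes have the same start and end in Ensembl release 115.

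All genes were fitted in edgeR 4.0.16 (R 4.3.3). Genes were kept by filterByExpr (at least 10 counts, 15 in total), scaled by TMM and tested by quasi-likelihood with group as the only term, at an adjusted p (Benjamini-Hochberg) under 0.05. SE is the size of the log2 fold change divided by the square root of F, and 95% intervals use the test's degrees of freedom. CPM use TMM-scaled library sizes. Chi-square statistics between libraries were at least 10.1 per degree of freedom, so no library was a repeat of another. The 2 libraries titled OP50 + MH-1 stood at 24.8 to each other, and the 2 titled OP50 at 10.1. Between foods the values were 26.5 and 33.6 for OP50 + MH-1 replicate 1, and 19.6 and 18.9 for its replicate 2. Spread within the OP50 + MH-1 title thus exceeded part of the spread between foods. In counts simulated for this comparison (12357 genes tested, 200 changed), the test found 60% of the 2-fold changes and 85% of the 4-fold changes. Of its calls 2.68% were false. The simulated counts followed the trended dispersion alone, without further variation between genes or an outlying library. These shares may therefore be too favourable for the real libraries.

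All 10 lysozymes are named. The other genes are called members of the lists of regulators, ilys genes and caenopores, or the 2 with the smallest p, the genes most like lys-4, and pathway members given by role. The members and lists were chosen with earlier results of these data known. Alternatives were scaling, filter, tool (DESeq2 1.42.0, voom in limma 3.58.1), dispersion settings, a replicate block and each library left out. For genes other than lysozymes they were added after seeing the data, as was the marker sum without asp-1. Figures were drawn with matplotlib 3.10.9.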

Additional observations from a re-analysis of the deposited data

How the results depend on the processing

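The log2 fold changes of the 8 tested lysozymes kept their direction and their side of the threshold in 92 of 96 alternative fits; 3 newly passed (lys-2 and lys-5 without the filter, lys-2 without OP50 replicate 2), and lys-7 ranged from -0.18 to 0.00537 with a library left out, turning positive without OP50 replicate 2. Without the filter 2 lysozymes were called lower and 1 higher; with a library left out the counts were 1 lower, and 0 to 1 higher (lys-2). Over all genes, lower and higher calls numbered 297 and 815 without the filter, 95 and 369 with DESeq2, 27 and 135 with limma-voom, and 109 and 450 with the replicate block. With a library left out, lower calls ranged from 20 (without OP50 + MH-1 replicate 1) to 95 (without OP50 + MH-1 replicate 2), and higher calls from 99 (without OP50 + MH-1 replicate 1) to 395 (without OP50 replicate 1). The difference in summed lysozyme CPM was between -227 and -89.1 with a library left out. The causes were not tested. The other named genes kept their call in 96 of 132 fits, with 18 calls lost and 18 gained. The labels do not say whether same-numbered libraries share a culture or day; their deviations correlated at 0.209 over genes, which 2 pairs cannot settle. With the replicate block lys-4 had an adjusted p of 0.000147 (edgeR), no lysozyme call changed, and ilys-5 (0.00498), spp-8 (0.0114), spp-4 (0.0371) and ctsa-1 (0.0355) newly passed. Each fit without a library takes the spread of the reduced group from the other group. Depth limits lys-3, lys-9 and lys-10, with at most 18 counts in a library. DESeq2 gave lys-3 no adjusted p, and that fit was counted among the 92 as not passing.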
